A study of Rattus norvegicus with 14 samples.

Results

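A set of 56 genes was strong in the rat pineal gland, weak in the retina and in mixed tissue, and kept within a 2-fold range over a day. They were chosen from the measured values: a mean of at least 10 FPKM over the 6 pineal libraries, at least 5 times the mean of the 6 retina libraries and at least 5 times the mean of the 2 mixed tissue libraries, and a highest pineal value under 2 times the lowest. FPKM scales the fragments of a transcript by its length and by the size of its library, so that genes can be compared per length. These 56 genes came from 16472 in all and from 119 genes that passed the level and both ratios. A list of 13 genes named with the rule was left out (Tph1, Asmt, Ddc, Alox15, Chrnb4, Gnat2, Gnb3, Gngt2, Pde6c, Adrb1, Slc39a4, Lhx4 and Col8a1). Of those, Alox15, Chrnb4 and Col8a1 would have failed on the pineal range, with 2.03, 2.03 and 2.81, and the other members of that list met every threshold, which makes 66 steady genes before they were removed. The level, both ratios and the pineal range are therefore descriptions of how the genes were picked and carry no test.

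The animals were Sprague-Dawley rats of 6 to 8 weeks under 14 h of light and 10 h of dark, with zeitgeber time (ZT) counted from lights on. Light-phase pools of pineal gland and of retina came from ZT1, ZT7 and ZT13, and dark-phase pools from ZT15, ZT19 and ZT23, with 10 animals to a pool. Mixed tissue was a pool of 15 tissues from 3 animals, with the retina among them, taken at ZT7 and ZT19. No animal carried a named allele or received a named agent in the labels. With a single library for each time, the libraries of a tissue serve as its replicates, and their spread holds time of day as well as pool to pool variation. In such bulk tissue, fewer cells of a type and less RNA per cell cannot be told apart.

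The pineal gland is an endocrine organ that makes melatonin from serotonin under the control of sympathetic nerves, which release noradrenaline at night. Its main cell, the pinealocyte, shares an origin and many transcripts with photoreceptors of the retina, and both use the homeobox factors Crx and Otx2. Many pineal transcripts follow a strong day and night rhythm through cyclic AMP. The genes described here make up the other side of that picture, secretory, metabolic, nuclear and membrane genes that stayed within a small range.

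Upstream sequences were matched from the RefSeq table of the GRCr8 assembly for 41 of the 56 genes. Each window, 250 bases before the start and 50 after it, was searched on both strands for TAATCC and TAATCT, core letters bound by Crx and Otx factors, for TGACGTCA, the cyclic AMP response element, for CACGTG, the E-box, and for TATAAA, the TATA box. No motif in this set contains another. The following 250 bases before the start are shown for 4 genes that held one of the first, the cyclic AMP or the E-box letters, with the matched letters in capitals, 5′ to 3′ on the gene's own strand.
Esm1 (GRCr8 chr2:46609003-46609252, plus strand): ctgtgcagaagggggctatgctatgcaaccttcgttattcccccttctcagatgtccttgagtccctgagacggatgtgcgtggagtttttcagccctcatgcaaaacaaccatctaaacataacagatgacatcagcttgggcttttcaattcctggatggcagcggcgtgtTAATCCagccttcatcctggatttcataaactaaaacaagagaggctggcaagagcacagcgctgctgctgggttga
Plcd4 (GRCr8 chr9:83566014-83566263, plus strand): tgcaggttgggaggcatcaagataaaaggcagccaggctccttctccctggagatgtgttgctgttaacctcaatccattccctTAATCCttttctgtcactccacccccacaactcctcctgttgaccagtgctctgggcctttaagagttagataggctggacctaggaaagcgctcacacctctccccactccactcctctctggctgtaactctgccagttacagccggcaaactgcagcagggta
Ormdl3 (GRCr8 chr10:84092301-84092550, minus strand): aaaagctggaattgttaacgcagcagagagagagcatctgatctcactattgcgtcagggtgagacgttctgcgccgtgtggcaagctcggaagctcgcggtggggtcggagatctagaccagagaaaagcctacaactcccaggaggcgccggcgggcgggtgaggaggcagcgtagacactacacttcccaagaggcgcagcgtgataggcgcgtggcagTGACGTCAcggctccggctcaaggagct
Cd63 (GRCr8 chr7:1921894-1922143, plus strand): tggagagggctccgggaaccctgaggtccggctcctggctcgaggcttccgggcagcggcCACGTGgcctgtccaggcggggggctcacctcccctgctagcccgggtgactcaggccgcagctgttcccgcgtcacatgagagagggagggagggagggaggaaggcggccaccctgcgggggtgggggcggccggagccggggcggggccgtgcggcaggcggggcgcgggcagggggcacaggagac
In Esm1 and Plcd4 the capitals mark TAATCC, with its first base at -77 and -166 from the start. In Ormdl3 they mark TGACGTCA at -28, and in Cd63 they mark CACGTG at -190. TAATCC was found in 4 of the 41 windows (9.76%), against 7.11% of all 27457 windows of the table, and the other holders were Pla2g5 and Sat2. Either TAATCC or TAATCT was found in 14.6% of the members' windows against 14.9% of all. TGACGTCA stood in 1 of 41 (2.44%) against 1.91%, CACGTG in 1 of 41 against 6.65%, and TATAAA in 4 of 41 (9.76%) against 14.3%. In the same order, the 12983 windows of genes in the FPKM data gave 6.31%, 12.8%, 2.56%, 7.86% and 12.1%. The 42 windows of pineal-enriched genes with a pineal range of 2 or more gave 9.52%, 16.7%, 7.14%, 7.14% and 11.9%. For TGACGTCA and for either TAATCC or TAATCT, the direction of the difference thus depends on the background. These shares are counts of letters on either strand and say nothing of binding, and differences between the sets were not tested.

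Mean pineal levels ran from 11.01 FPKM for Znf668 to 864 FPKM for Ptprn, with a median of 44.6 FPKM. The median of the retina means was 3.23 FPKM and that of the mixed tissue means 4.19 FPKM. Together the members took 2.72% to 3.22% of all FPKM of a pineal library, 0.255% to 0.315% of a retina library and 0.264% to 0.280% of a mixed library. A mean of at least 100 FPKM was reached by 16 of the 56. The ratio of the pineal mean to the higher of the other means ran from 5.04 to 55.4 with a median of 6.80, was at least 10 in 20 genes, at least 20 in 9 and at least 50 in Esm1 and Prss53 alone. In all 56 genes the lowest pineal library lay above the highest retina and mixed library, and no member was listed at 0 in any of the 14 libraries.

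**Figure D1:**
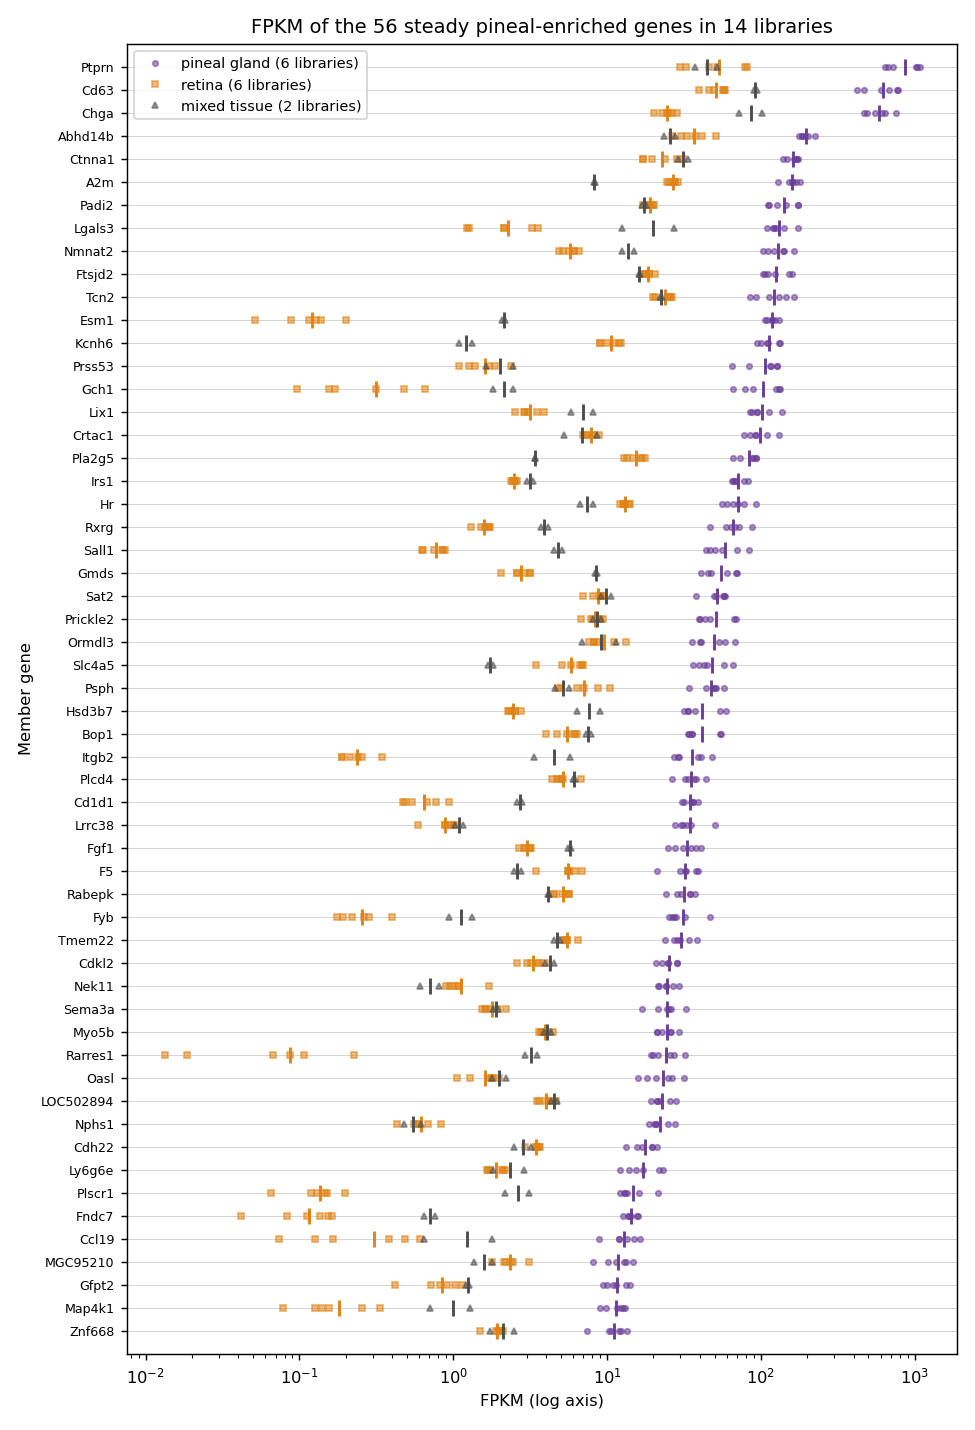
FPKM of each of the 56 genes in every library on a log axis, ordered by mean pineal level; circles are 6 pineal, squares 6 retina and triangles 2 mixed tissue libraries, and each vertical line is a group's mean. The pineal circles stand apart to the right in every row, while the order of retina and mixed tissue changes from gene to gene, from Kcnh6 with the retina above to Lgals3 and Itgb2 with mixed tissue above.

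The most abundant members were genes of secretory granules and vesicle traffic. Ptprn encodes a receptor-type phosphatase-like protein that spans the membrane of dense-core granules (gene ID 116660, rn4 chr9:74528095-74542756). Its pineal FPKM, in the order ZT1, ZT7, ZT13 (light), ZT15, ZT19, ZT23 (dark), was 1078, 1027, 674, 644, 721 and 1042. The lowest values were thus those on either side of lights off. Its mean of 864 ± 204 FPKM (SD, n = 6) ranked 6 among all genes of the pineal gland and was 16.2 times the retina mean of 53.2 ± 22.1 FPKM. Cd63, a tetraspanin of late endosomes and granules (gene ID 29186, rn4 chr7:2208659-2211323), had 767, 682, 422, 469.6, 607 and 777 pineal FPKM at the same times. It was also lowest at ZT13 and ZT15. In the retina Cd63 lay between 39.3 and 58.3 FPKM, and in mixed tissue it stood at 89.7 and 94.2 FPKM. Chga, chromogranin A, the main soluble protein of dense-core granules (gene ID 24258, rn4 chr6:126821399-126832565), had 610.3, 643, 552, 758, 491 and 466 pineal FPKM. It was highest at ZT15, where Ptprn was lowest. Its mixed tissue values of 102 and 71.8 FPKM lay above all 6 retina values, 20.1 to 28.4 FPKM. Myo5b, a motor of vesicle recycling, and Rabepk, a Rab9 effector, were far weaker, with pineal means of 24.4 ± 3.28 and 31.6 ± 4.91 FPKM (SD, n = 6).

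Most other genes of the dense-core granule were not enriched in the pineal gland. Of 23 genes on a list of dense-core vesicle and secretory genes, Ptprn and Chga were the only members. Ptprn2, the relative of Ptprn, had a pineal mean of 47.5 FPKM, 4.11 times the retina and 2.60 times mixed tissue. Chgb, chromogranin B, was as high in mixed tissue as in the pineal gland, with means of 132 and 133 FPKM. Scg3, a granule protein that binds chromogranin A, reached 123 FPKM in the pineal gland and 47.2 FPKM in mixed tissue. The proprotein convertases Pcsk1 and Pcsk2, which cut prohormones in granules, lay at 0.106 and 0.236 FPKM in the pineal gland, against 5.18 and 9.60 FPKM in the retina. High Chga and Ptprn therefore stood beside convertases not far above the estimated value of 1 fragment per kilobase of transcript, 0.0216 to 0.0534 FPKM.

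A group of 11 members encodes secreted or extracellular proteins, and Esm1 was the most selective gene of the whole set. Esm1 encodes endocan, a secreted proteoglycan known from endothelial cells (gene ID 64536, rn4 chr2:44626010-44634748). Its pineal FPKM over the 6 times was 123, 107, 118, 109, 117 and 131, the narrowest range of the set, 1.22. The 6 retina libraries held 0.0516 to 0.200 FPKM and the mixed libraries 2.18 and 2.06 FPKM. The pineal mean was 976 times the retina mean, a level near the worth of single fragments, and 55.4 times the mixed mean. Endothelial markers did not share that pattern: the 8 genes of the endothelium list that were in the table summed to 24.5 to 38.4 FPKM in the pineal gland and to 109.7 to 157 FPKM in mixed tissue.

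A2m, alpha-2-macroglobulin, a broad protease inhibitor (gene ID 24153, rn4 chr4:158103711-158153423), had 179, 162, 169, 160.3, 129 and 152 pineal FPKM. It was the secreted member with the highest mean, 158 ± 17.3 FPKM (SD, n = 6). Its retina values were 24.7 to 28.9 FPKM and its mixed values 8.36 and 8.20 FPKM, without overlap. Lgals3, galectin-3, a lectin made by many macrophages and epithelia, had 174, 140.5, 109.8, 126, 122 and 120.0 pineal FPKM. Here the order of the other tissues was the opposite, with 1.23 to 3.54 FPKM in the retina and 27.4 and 12.6 FPKM in mixed tissue. Tcn2, transcobalamin, which carries vitamin B12 to cells, had 114, 146, 131, 164, 92.2 and 84.6 pineal FPKM, lowest in the late dark libraries. Its retina mean of 23.8 FPKM put it just inside the ratio threshold, at 5.12.

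Prss53 encodes a serine protease with more than one protease domain (gene ID 499270, rn4 chr1:187169747-187174411). Its pineal FPKM was 116, 128, 114, 84.2, 64.8 and 127, so that the ZT15 and ZT19 libraries were lower than the other pineal libraries. Retina values of 1.09 to 2.39 FPKM and mixed values of 2.43 and 1.62 FPKM gave it the next highest selectivity after Esm1, 52.1 times the higher of the other means. Crtac1, an acidic extracellular matrix protein of cartilage and brain, had 92.0, 77.6, 93.2, 130.3, 109 and 85.0 pineal FPKM. Pla2g5, a secreted phospholipase A2 that releases fatty acids from phospholipids, had 92.4, 93.3, 87.2, 88.8, 65.4 and 73.5 pineal FPKM. Its highest retina library, 17.7 FPKM, was well above mixed tissue, 3.39 and 3.42 FPKM. The remaining secreted members had lower levels: means of 32.9 FPKM for the growth factor Fgf1, 32.1 for the coagulation factor F5, 24.5 for the axon guidance cue Sema3a and 12.9 for the chemokine Ccl19. Ccr7, the receptor of Ccl19, had a pineal mean of 0.286 FPKM, and Nrp1, a coreceptor of Sema3a, 4.41 FPKM against 13.7 FPKM in mixed tissue.

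Among channels and carriers, Kcnh6 was the strongest. It encodes a voltage-gated potassium channel of the ERG family (gene ID 116745, rn4 chr10:95400862-95421678). Its pineal FPKM was 109.6, 133, 112, 132, 99.5 and 93.6, 93.9 times the mixed mean of 1.21 FPKM and 10.7 times the retina mean of 10.6 FPKM. Its relatives showed another order: Kcnh2 had a pineal mean of 2.60 FPKM and a retina mean of 14.4 FPKM, and Kcnh7 had 0.0465 and 1.40 FPKM. Lrrc38, an auxiliary subunit of the calcium-activated potassium channel BK, had 35.2, 31.1, 27.7, 30.3, 32.9 and 50.1 pineal FPKM, against 0.586 to 1.01 in the retina and 1.02 and 1.15 in mixed tissue. The pore-forming subunit of that channel, Kcnma1, reached a pineal mean of 16.5 FPKM, 2.03 times the retina. Ormdl3, a brake on sphingolipid synthesis, had 67.9, 35.8, 39.9, 40.5, 53.3 and 58.7 pineal FPKM. Plscr1, a phospholipid scramblase, and Tmem22, now named Slc35g2 and a presumed solute carrier, had means of 14.8 and 30.4 FPKM.

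Slc4a5, a sodium bicarbonate cotransporter (gene ID 297386, rn4 chr4:117432385-117515453), had 42.7, 44.7, 57.2, 66.1, 36.3 and 39.8 pineal FPKM, with the highest value at ZT15. It is also the only member on the choroid plexus list. All 8 genes of that list were in the table, and their summed pineal level was 3912 FPKM at ZT15 against 871 to 1400.1 FPKM at the other times. Ttr, the defining choroid plexus gene, stood at 3566 FPKM at ZT15 and at 664 to 1152 FPKM otherwise, Kl at 14.1 against 2.19 to 5.12, and Folr1 at 10.9 against 0.484 to 2.80. The sum at ZT15 was thus mostly Ttr, and not every gene of the list stood apart there. Kcne2 had 66.8 FPKM at ZT15 against 25.8 to 64.4 otherwise. Over the 6 pineal libraries the highest value was 1.86 times the lowest for Aqp1, 1.93 times for Otx2 and 8.09 times for Clic6. Otx2 is also on the pinealocyte list, so its level need not follow choroid plexus tissue. The part of choroid plexus tissue in the Slc4a5 values was not tested. The Slc4a5 values at the other times were 36.3 to 57.2 FPKM. In mixed tissue the same list summed to 862 and 866 FPKM, and Slc4a5 stood at 1.82 and 1.67 FPKM.

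The metabolic enzymes comprised 9 members. Abhd14b, a small hydrolase that can deacetylate lysine (gene ID 300983, rn4 chr8:111592329-111596366), had 184, 195, 201, 226, 186 and 178 pineal FPKM. It was among the 5 narrowest ranges, at 1.27, and its retina level of 26.3 to 51.1 FPKM was the highest of this class. Gch1, GTP cyclohydrolase, the rate-limiting enzyme of the synthesis of tetrahydrobiopterin, which tryptophan hydroxylase needs as a cofactor (gene ID 29244, rn4 chr15:23023996-23139794), had 79.0, 132, 125, 132, 88.8 and 66.3 pineal FPKM. Those of ZT7, ZT13 and ZT15 were high and those from ZT19 to ZT1 low, and the range, 1.996, was the widest of the set. Gch1 was at 0.0968 to 0.658 FPKM in the retina and at 2.46 and 1.82 FPKM in mixed tissue.

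Apart from Pcbd1, the rest of the tetrahydrobiopterin pathway did not share the selectivity of Gch1, the only member among 7 genes of that list. Pcbd1, which recycles the cofactor after use, came closest, with 104 FPKM in the pineal gland, 4.98 in the retina and 22.3 in mixed tissue, a ratio of 4.67 to mixed tissue. After median ratio scaling Pcbd1 met the rule as well, and after quantile normalization Gch1 failed it. Pts and Spr, the enzymes that follow Gch1, had pineal means of 6.80 and 3.42 FPKM. Gchfr, the feedback regulator of Gch1, had 0.232 FPKM in the pineal gland and 8.18 FPKM in mixed tissue.

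Padi2, which turns arginine in proteins into citrulline, had 175, 146, 112, 113, 127 and 173 pineal FPKM, low at ZT13 and ZT15 as Ptprn and Cd63 were. Nmnat2, an enzyme of NAD synthesis in axons, had 112, 121, 138, 164, 141 and 103 pineal FPKM, with its highest value at ZT15. Psph, the last enzyme of serine synthesis, had 51.2, 49.1, 50.1, 57.5, 34.3 and 44.0 pineal FPKM. The enzymes ahead of it did not follow: Phgdh had a pineal mean of 5.58 FPKM against 15.6 in mixed tissue, and Psat1 1.35 against 25.3 FPKM. Gmds, the entry enzyme of GDP-fucose synthesis, Sat2, an acetyltransferase, Hsd3b7, an enzyme of bile acid synthesis, and Gfpt2, of the hexosamine pathway, had pineal means of 55.4, 51.9, 41.6 and 11.5 FPKM.

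Nuclear and RNA genes formed a further class of 6. Ftsjd2, now named Cmtr1, which methylates the cap of messenger RNA, had 153, 123, 103, 106, 111 and 159 pineal FPKM, highest at ZT23 and ZT1. Hr, the corepressor Hairless of nuclear receptors, had 70.9, 65.6, 56.2, 59.8, 77.2 and 93.5 pineal FPKM, with both late dark values above the others. Rxrg, retinoid X receptor gamma, a partner of retinoid and thyroid hormone receptors, had 67.6, 87.9, 72.2, 64.1, 46.5 and 59.7 pineal FPKM, 17.0 times mixed tissue and 41.8 times the retina. The other retinoid X receptors were not selective: Rxra had means of 8.56, 7.56 and 9.81 FPKM in pineal gland, retina and mixed tissue, and Rxrb 13.9, 17.4 and 10.8 FPKM. Sall1, a zinc finger repressor of organ development, had 44.2, 46.8, 50.2, 55.7, 84.0 and 70.0 pineal FPKM, so that its late dark values exceeded all earlier ones. Its retina values were 0.630 to 0.889 FPKM and its mixed values 4.54 and 5.11 FPKM. Bop1, a ribosome assembly factor, and Znf668, a zinc finger gene now named Zfp668, had means of 41.4 and 11.01 FPKM.

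In the signalling class Irs1, the insulin receptor substrate that links insulin and IGF receptors to PI3-kinase, was the strongest (gene ID 25467, rn4 chr9:81585251-81638071). Its pineal FPKM was 82.2, 69.1, 68.0, 78.2, 66.3 and 64.5, one of the 5 narrowest ranges at 1.27. Its homologue Irs2 had 2.02, 2.79, 2.78 and 2.82 pineal FPKM from ZT1 to ZT15 and 85.7 and 39.1 FPKM at ZT19 and ZT23. At ZT19 the level of Irs2 thus lay above that of Irs1, and at the 4 earlier times below it. Plcd4, a phospholipase C, and the kinases Cdkl2 and Nek11 had pineal means of 35.1, 25.1 and 24.6 FPKM.

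The adhesion and polarity class was led by Ctnna1, alpha-catenin, which ties cadherins to actin (gene ID 307505, rn4 chr18:27629915-27769360). It had 172, 148, 174, 163, 138 and 169.6 pineal FPKM. Prickle2, a planar cell polarity protein, had 46.5, 39.8, 43.6, 40.4, 69.0 and 67.2 pineal FPKM, high in both late dark libraries. Nphs1, nephrin, the adhesion protein of the kidney slit diaphragm, had 20.9, 20.8, 25.01, 27.6, 18.6 and 20.2 pineal FPKM against 0.432 to 0.830 in the retina and 0.615 and 0.477 in mixed tissue. Cdh22, a cadherin of the brain, had a pineal mean of 17.7 FPKM.

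Several members are best known from leukocytes. Itgb2, the beta chain that leukocyte integrins share (gene ID 309684, rn4 chr20:11446526-11485009), had 40.6, 38.8, 29.0, 27.1, 29.4 and 47.9 pineal FPKM, 0.188 to 0.342 in the retina and 5.72 and 3.34 in mixed tissue. Its partner chains were low: Itgal had a pineal mean of 0.660 FPKM and Itgam 0.623 FPKM, and the pan-leukocyte gene Ptprc had 1.13 FPKM, all below their mixed tissue means of 2.69, 1.66 and 4.93 FPKM. The 11 microglia genes summed to 44.5 to 67.2 FPKM in the pineal gland, to 13.003 to 21.0 FPKM in the retina and to 107 to 122 FPKM in mixed tissue. Itgb2 was 7.84 times higher in the pineal gland than in mixed tissue, where the microglia genes were higher. The part of leukocytes or microglia in the Itgb2 values was not tested. Fyb, an adaptor of T cell signalling, had 32.2, 47.0, 28.1, 25.1, 27.2 and 26.6 pineal FPKM. Map4k1, a kinase of blood cells, Cd1d1, which presents lipid antigens, and Oasl, an interferon-induced gene, had means of 11.4, 34.8 and 22.99 FPKM.

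The 6 members with no assigned role were led by Lix1, with 113, 84.4, 94.9, 94.4, 88.0 and 138 pineal FPKM. Rarres1, a retinoid-responsive gene, had a pineal mean of 24.2 FPKM and 0.0133 to 0.226 FPKM in the retina. Fndc7 held between 12.7 and 15.9 FPKM in the pineal gland, a range of 1.25. LOC502894, now named Tigar and known as a phosphatase that limits glycolysis, Ly6g6e, of the Ly6 family, and MGC95210, now named Mtnap1, had means of 22.9, 17.2 and 11.8 FPKM. The spans of Ly6g6e and MGC95210 overlap Clic1 and Fam104a, whose pineal means were higher, at 29.3 and 66.3 FPKM. Only spans were compared, not exons, and whether the libraries keep strand was not given, so both values are uncertain. Plcd4, Bop1, Ctnna1 and Nek11 also overlap another gene, in each case one of a lower pineal level, 0.435 to 7.28 FPKM.

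Within the limit set by the rule the courses of the members differed. The ratio of the highest to the lowest pineal library had a median of 1.65, was under 1.5 in 15 genes, and the coefficient of variation ran from 7.60% to 28.8%. The highest pineal value fell at ZT1 in 14 genes, at ZT7 in 10, at ZT13 in 4, at ZT15 in 10, at ZT19 in 7 and at ZT23 in 11. The lowest fell at ZT19 in 19 of the 56. The ZT19 library was also the lowest in 43.4% of the other 3275 steady genes of at least 10 FPKM. By the estimate of 0.0534 FPKM per fragment and kilobase it was the shallowest library. Its summed FPKM of 163087 was the lowest of the pineal libraries, against 174889 to 180522 for the others. The part of depth or scaling in the low ZT19 values was not tested. Both late dark libraries lay above all 3 light libraries in 7 members (Gfpt2, Hr, LOC502894, Plscr1, Prickle2, Rabepk and Sall1), where 10.2% of genes did so, and below them in 15, where 33.2% did so. The rule limited these values, so nothing is read from the counts.

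**Figure D2:**
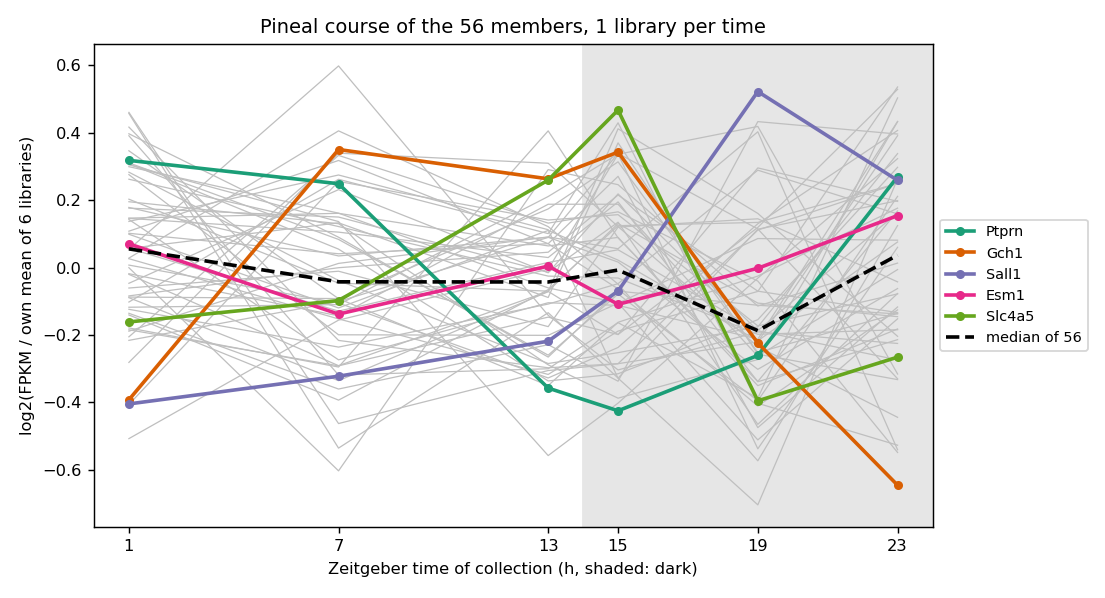
Course of the 56 genes over the 6 pineal libraries as log2 of FPKM over the gene's own mean, against zeitgeber time with the dark phase shaded; grey lines are single genes, coloured lines 5 named genes and the dashed line the median. Esm1 stays near 0, Ptprn is low at ZT13 and ZT15, Gch1 is high from ZT7 to ZT15, Slc4a5 is highest at ZT15 and Sall1 at ZT19, and the median is lowest at ZT19 at -0.19.

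The share of steady genes was smaller among pineal-enriched genes than among all genes of that level. Of the 119 genes with the level and both ratios, 66 (55.5%) had a pineal range under 2, against 3331 of 3914 genes (85.1%) with a mean of at least 10 pineal FPKM. That contrast rests on the values that chose the members and was not tested. The same measure was then taken for the members in tissue that the rule did not use for steadiness. In the retina, 36 of the 42 members with a mean of at least 1 FPKM (85.7%) stayed within a range of 2, against 91.8% of all such genes, and the difference was not tested. After quantile normalization 40 of 43 members (93.0%) did so, and after median ratio scaling 38 of 42 (90.5%). The share of all genes under these scalings was not counted, so neither value can be set against 91.8%. The exceptions without such scaling were Lgals3 at 2.88, Ptprn at 2.74, Prss53 at 2.19, Psph at 2.17, Slc4a5 at 2.03 and F5 at 2.01. Pineal-enriched genes whose pineal range was 2 or more did much the same in the retina, with 32 of 37 (86.5%) within a range of 2. In mixed tissue the ZT7 and ZT19 libraries differed by less than 2 times in 50 of 52 members (96.2%), against 97.2% of all genes, and the exceptions were Lgals3 and Ccl19, whose ZT19 values were 0.459 and 0.360 of those at ZT7.

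The next question was whether members that are level in the pineal gland follow a rhythm in the retina. A 24-h cosine and sine were fitted to log2(FPKM + 1) of the 6 retina libraries, which leaves 3 residual degrees of freedom. Of the 43 members tested, 3 passed limma's moderated F test at an adjusted p under 0.05 (6.98%), against 8.06% of all genes tested. The share is near the background. Ptprn had 81.0, 45.6, 32.8, 29.6, 51.8 and 78.5 retina FPKM in the same order of times. Its fitted peak-to-trough difference was 1.42 on the log2 scale with a peak at ZT0.67 and a Benjamini-Hochberg adjusted p of 0.00272 by limma. Ctnna1 had 28.5, 19.6, 17.0, 17.1, 23.7 and 31.1 retina FPKM, a difference of 0.86 with a peak at ZT23.8 and an adjusted p of 0.0089 by limma. Psph had 6.37, 10.5, 8.67, 7.12, 4.81 and 4.995 retina FPKM, a difference of 1.08 with a peak at ZT8.61 and an adjusted p of 0.0089 by limma. Retina Psph was thus high by day, and retina Ptprn and Ctnna1 were high around lights on.

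The Psph and Ctnna1 calls were lost without the ZT23 retina library, with adjusted p = 0.0530 and 0.0543 by limma, and that of Ptprn was kept. The Psph call was also lost in a fit shared with the pineal libraries, with adjusted p = 0.0610 by limma. With no filter on low values all 3 were lost, at adjusted p of 0.0507 to 0.0589 by limma, when 2 of 13536 genes were called. An unadjusted p under 0.05 was found for 14 of the 43 members (32.6%) and for 33.3% of all genes tested. Whether rhythms differ between retina and pineal gland was not tested, because the members were chosen for a small pineal range.

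**Figure D3:**
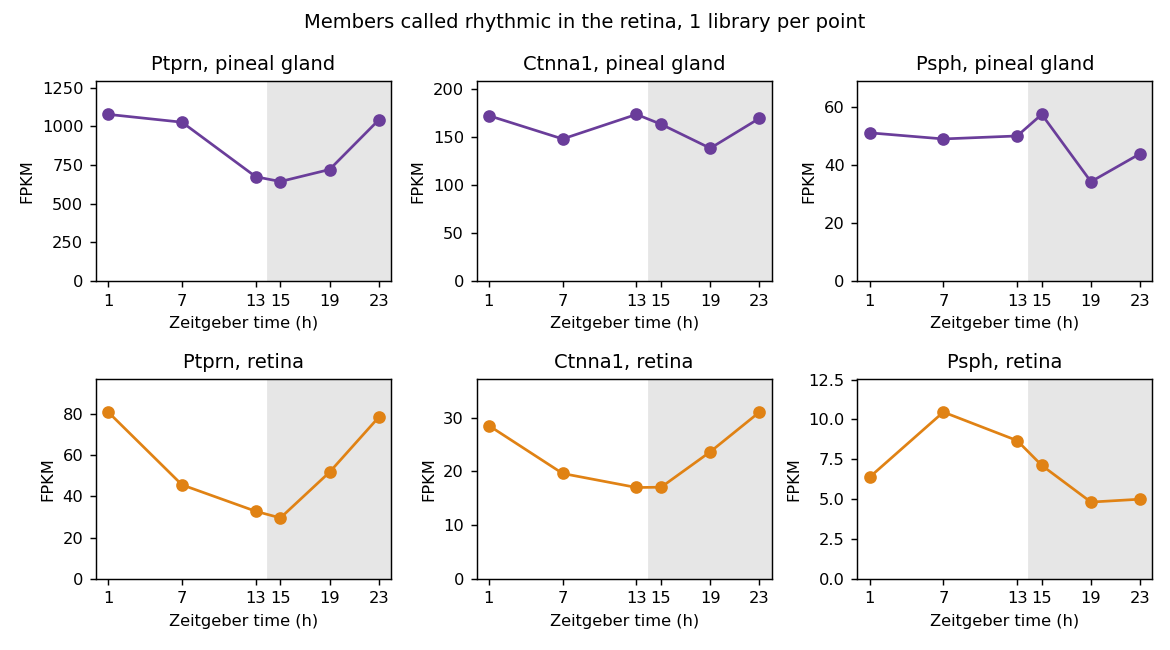
FPKM of Ptprn, Ctnna1 and Psph against zeitgeber time in the pineal gland (upper row) and the retina (lower row), each point being 1 library, each axis starting at 0 and the dark phase shaded. Retina Ptprn falls from 81.0 at ZT1 to 29.6 at ZT15 and stands at 78.5 at ZT23, Ctnna1 is highest at ZT23 with 31.1 and lowest at ZT13 with 17.0, and Psph is highest at ZT7 with 10.5.

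Retina late dark (ZT19 and ZT23) was also set against light (ZT1, ZT7 and ZT13), with a mean of its own for ZT15. None of the 43 members was called by limma at an adjusted p under 0.05, where 0.0103% of all genes tested were called. An unadjusted p under 0.05 was found for 7 members (16.3%) and for 15.6% of all genes tested. Leaving out the ZT1 library gave 1 member called, Psph, where 357 of 9635 genes (3.71%) were called. By order alone, both late dark retina libraries lay above the 3 light libraries in 5 of 42 members (Abhd14b, Cd63, Nmnat2, Prss53 and Sema3a), against 4.64% of genes, and below them in 11, against 32%.

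Retina and mixed tissue were then compared with each other. The rule bounded both means by the pineal mean but did not set one against the other, so the calls describe the members within those bounds. Of the 51 members tested, 25 (49.0%) differed by limma at an adjusted p under 0.05, against 69.7% of all genes tested, and the difference between these shares was not tested. There were 7 members higher in the retina, where 20.8% of all genes were, and 18 lower, where 48.8% were. The filter on low values fixed the direction of 7 of those 18, as given below. The median difference, retina minus mixed tissue on the log2(FPKM + 1) scale, was -0.17 over the members and -0.30 over all genes tested. A shift of that kind depends on scaling: the median of all genes was 0.19 after quantile normalization and -0.02 after median ratio scaling. The split of the members became 30 higher and 13 lower after quantile normalization, and 18 higher and 16 lower after median ratio scaling. All 7 of the higher calls were kept under both scalings, and 13 of the 18 lower calls were. The sign of the difference changed in 14 of the 51 members after quantile normalization and in 9 after median ratio scaling. A fit of the ZT7 and ZT19 libraries alone, with time as a block, also called 25 members, of which 22 were shared. Bop1, Irs1 and MGC95210 were lost in it, with adjusted p = 0.149, 0.183 and 0.0776 by limma.

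The members higher in the retina were Kcnh6, Pla2g5, A2m, Slc4a5, F5, Hr and MGC95210. Kcnh6 had 9.04 to 12.3 retina FPKM against 1.09 and 1.32 in mixed tissue, a difference of 2.39 ± 0.13 (SE) on the log2 scale and an adjusted p of 5.08e-08 by limma. Pla2g5 differed by 1.89 ± 0.13 (SE) with an adjusted p of 2.1e-07 by limma, and A2m by 1.58 ± 0.09 with an adjusted p of 4.14e-08 by limma. In all 3 genes every retina library lay above both mixed libraries. Relative to the median of all genes these differences were 2.68, 2.19 and 1.88. Slc4a5 was higher by 1.28, F5 by 0.84 and Hr by 0.75. MGC95210 was higher by 0.37 with an adjusted p of 0.0377 by limma, a call that was lost without either mixed library, with adjusted p = 0.0528 (without ZT7) and 0.2997 (without ZT19) by limma.

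Of the 18 members lower in the retina, 7 were under 1 FPKM in every retina library: Cd1d1, Esm1, Gch1, Itgb2, Plscr1, Rarres1 and Sall1. They passed the filter on low values only through the mixed libraries, which fixed their direction, so nothing is read from it. The other 11 had at least 1 FPKM in every retina library. With a filter of 5 FPKM in at least 2 libraries there were 9 lower calls. Among them Lgals3, Gmds, Hsd3b7, Lix1 and Fgf1 were under 5 FPKM in every retina library and passed that filter only through the mixed libraries. The stricter filter thus fixed their direction, and the count is no separate check of it. Lgals3 had 1.23 to 3.54 retina FPKM against 27.4 and 12.6 in mixed tissue, a difference of -2.64 ± 0.33 (SE) on the log2 scale and an adjusted p of 3.11e-05 by limma. Chga differed by -1.77 ± 0.15 (SE) with an adjusted p of 1.5e-06 by limma. In both genes every retina library lay below both mixed libraries. Itgb2 differed by -2.13 ± 0.14 (SE) and Rarres1 by -1.95 ± 0.09, in the direction that the filter of 1 FPKM fixed. Relative to the median of all genes the differences were -2.35 for Lgals3, -1.83 for Itgb2, -1.66 for Rarres1 and -1.47 for Chga. Their order rests on the pseudocount: with 0.1 FPKM the differences were -3.09 for Lgals3, -3.74 for Itgb2, -4.24 for Rarres1 and -1.80 for Chga. Sall1, Plscr1, Esm1 and Gmds were lower by 1.72, 1.67, 1.48 and 1.35 on the log2(FPKM + 1) scale. Of these, only the direction of Gmds was not fixed by the filter of 1 FPKM. Gch1 was among the remaining lower calls at -1.27, as were Hsd3b7 at -1.31, Cd1d1 at -1.18, Nmnat2 at -1.12, Lix1 at -0.94, Rxrg at -0.93, Cd63 at -0.84, Fgf1 at -0.75, Bop1 at -0.41 and Irs1 at -0.26. The direction of Gch1 and Cd1d1 was again fixed by the filter of 1 FPKM. Relative to the median of all genes Bop1 was at -0.11 and Irs1 at 0.04, and both calls were lost under median ratio scaling, with adjusted p = 0.412 and 0.799 by limma. After quantile normalization Irs1 was called higher in the retina, by 0.51 with an adjusted p of 0.000273 by limma, and Bop1 was at -0.0048 with an adjusted p of 0.976 by limma. Since the mixed pools included retina, each of these differences is against tissue that holds some retina. Without the ZT7 or the ZT19 mixed library 44 members were tested, against 51 with both, so the counts of calls cannot be compared.

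**Figure D4:**
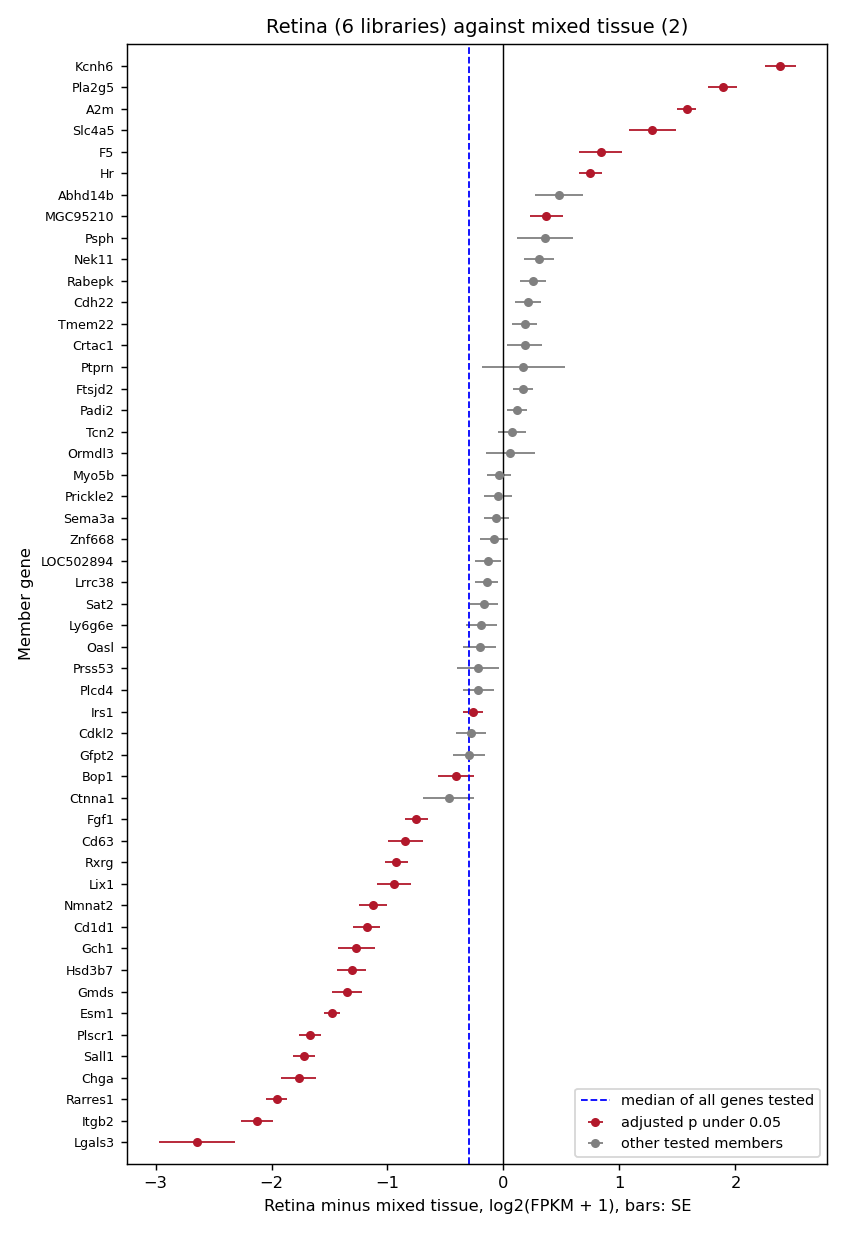
Difference between the retina and mixed tissue for the 51 members tested, on the log2(FPKM + 1) scale with SE bars; red points passed an adjusted p under 0.05 and the dashed line is the median of all genes tested, -0.30. Kcnh6, Pla2g5 and A2m stand at the upper end and Lgals3, Itgb2 and Rarres1 at the lower, and most grey points lie between -0.30 and 0.50. The filter on low values fixed the direction of Itgb2 and Rarres1.

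The 3 lists that hold members compared as follows between retina and mixed tissue, over all their genes. Of the 23 dense-core vesicle genes tested, 5 were higher and 10 lower in the retina than in mixed tissue by limma, where 20.8% and 48.8% of all genes were, and 3 of 23 were rhythmic in the retina, against 8.06% of all genes. All 7 tetrahydrobiopterin genes tested were lower in the retina, Gch1 among them, and none of 6 was rhythmic there. For Gch1 that direction was fixed by the filter on low values, and its call was lost after quantile normalization, with adjusted p = 0.227 by limma. Of the 8 choroid plexus genes 3 were higher and 4 lower in the retina, with Slc4a5 among the higher.

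Some members lie close together in the genome. Hsd3b7 and Znf668 are 59.8 kb apart on rn4 chromosome 1 and Znf668 and Prss53 11.1 kb apart, so that 3 members fall within a stretch of under 100 kb. Gch1 and Lgals3 are 187 kb apart on chromosome 15, and Plcd4 and Ptprn 623 kb apart on chromosome 9. The stretch around Prss53 held 18 genes in windows of 250 kb, of which 12 had a pineal mean of at least 1 FPKM, and 4 were at least 2 times higher in the pineal gland than in both other tissues: the 3 members and Orai3. Orai3, a calcium channel subunit, had means of 16.3, 5.05 and 7.21 FPKM in pineal gland, retina and mixed tissue. Vkorc1, the target of warfarin and the neighbour of Prss53, had 30.8, 4.73 and 21.5 FPKM, high in mixed tissue too. Enrichment over both other tissues thus did not extend to every gene of the stretch.

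The edges of the set are gradual for the ratios and the range. Just inside the level were Znf668 at 11.01 FPKM, Map4k1 at 11.4 and Gfpt2 at 11.5, and just outside it Zic5 at 7.80, Glycam1 at 5.73 and Alx4 at 3.89. For the ratio to the retina, MGC95210 at 5.04, Tcn2 at 5.12 and Cdh22 at 5.13 were inside, and Arsg at 4.73, Pppde2 at 4.61 and Pik3r3 at 4.44 outside. For the ratio to mixed tissue, LOC502894 at 5.09, Ctnna1 at 5.15 and Znf668 at 5.23 were inside, and Klhl4 at 4.95, Hcn2 at 4.73 and Tm7sf2 at 4.70 outside. For the pineal range, Gch1 at 1.996, Oasl at 1.99 and Prss53 at 1.97 were inside, and Acvr1 at 2.03, Lmod1 at 2.04 and Gpx4 at 2.08 outside. After quantile normalization Ptprn, Gch1, A2m and 8 other members failed the rule, and after median ratio scaling Cd63, Sall1 and 9 others did.

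Summed FPKM of a library lay between 152281 and 212634, and 8852 to 11399 genes reached 1 FPKM. The pineal libraries matched their label by the 10 pinealocyte genes, which summed to 5517 to 6205 FPKM there, to 1099 to 2025 FPKM in the retina and to 120.1 to 193 FPKM in mixed tissue. Most of the pineal sum was Tph1, with a mean of 3539 FPKM. Gngt1 and Crx of that list were higher in the retina, with means of 1177 and 238 FPKM against 669 and 214 FPKM in the pineal gland. The 9 rod and cone genes summed to 13613 to 17998 FPKM in the retina and to 565 to 863 FPKM in the pineal gland. Other cell types also moved among the pineal libraries: the meninges and fibroblast genes summed to 269 to 716 FPKM with the highest value at ZT13, and the 5 blood genes to 1071 to 2010 FPKM, against 70.7 to 149 FPKM in the retina. The part of those tissues in the members' values was not tested.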

How the data were processed

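The authors deposited FPKM values, 1 per RefSeq transcript and library. TopHat 1.3.1 and Cufflinks 1.2.0, per the submitters' processing notes, were used with build rn4, and their roles are not given. Per the labels' protocols, polyadenylated RNA was copied with random primers and read as paired ends. From the 16932 transcripts, FPKM was summed per gene ID, which gave 16472 genes. Every member has 1 transcript. Starts in the table count from 0, since 99.5% of 1196 olfactory receptor spans are then whole codons, so 1 was added. No counts were used here, so exact depth is unknown and low values carry large counting error.

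Tests used limma 3.58.1 in R 4.3.3 on log2(FPKM + 1), with its mean-variance trend, two-sided, for genes that reached 1 FPKM in 2 or more of the libraries fitted, with Benjamini-Hochberg adjustment over all genes tested and a threshold of 0.05. The pseudocount of 1 FPKM understates the fold of low genes. Retina rhythm and retina phase were fitted on the 6 retina libraries, and retina against mixed tissue on 6 and 2 libraries (6 residual degrees of freedom). The pineal libraries stayed out of these fits. The fits were tested on simulated data. Nothing in the labels says that libraries of a tissue are replicates of one condition, so p-values measure only the spread between these pools. FPKM is relative within a library, so very abundant transcripts lower all others.

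Members, lists, companions and tests were chosen with earlier results of these data known. Roles were assigned, and related genes such as Irs2, Rxra and Pcsk1 picked, after values were seen. Genes were named if they were among the 25 highest or the 10 most selective members, among the 5 narrowest or 5 widest pineal ranges, called in a retina test, near a threshold, on a list or near another member, and the rest were added to account for every member. Names and upstream sequences came from RefSeq of GRCr8, and all 56 gene IDs matched. Of these, 6 have another current symbol. Alternatives were other pseudocounts, filters, scalings, transcript choice, a shared fit and leaving out each library. Some genes are not reported here.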

Additional observations from a re-analysis of the deposited data

Results flagged for a closer look

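A single library stood apart from the other 5 of its tissue, by a gap of more than 0.625 of the tissue's range, in 6 of 56 members in the retina (10.7%). In the pineal gland, where the rule limited the range, this held in 2 of 56. The nominal share of about 1 in 20 is for values of one condition, while these libraries differ in time and in level. The share over all genes was not counted, so no excess in the members is read from these counts. In the pineal gland, Lrrc38 had 50.1 FPKM at ZT23 against 27.7 to 35.2 in the other libraries, and Fyb had 47.0 FPKM at ZT7 against 25.1 to 32.2. In the retina at ZT7, Plcd4 had 6.74 FPKM against 4.41 to 5.18, and Nek11 had 1.70 FPKM against 0.902 to 1.07. In the retina at ZT23, Tmem22 had 6.45 FPKM against 4.96 to 5.51, and Znf668 had 1.50 FPKM against 1.89 to 2.12. Lrrc38 was low in the retina at ZT1, with 0.586 FPKM against 0.878 to 1.01, and Cdh22 was low in the retina at ZT13, with 2.93 FPKM against 3.47 to 3.65. Each of these times has 1 library, so a value that stands apart cannot be told from a property of that pool.

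Prickle2 differed in sign between the pineal gland and the retina for late dark against light. Its ZT19 and ZT23 values all exceeded those of the light phase in the pineal gland, a mean difference of 0.65 on the log2 scale, and all lay under those of the light phase in the retina, a mean difference of -0.26. In the retina 32% of genes had both late dark libraries below the light ones, and the median difference of all genes tested was -0.12. The retina difference of Prickle2 was not called, with adjusted p = 0.377 by limma. In the pineal gland 10.2% of genes had both late dark libraries above the light ones. The gap of 0.91 between the tissues was not tested, and the rule limited the pineal side of it.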

How the results depend on the processing

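No paired analysis was possible because the labels link no replicate numbers or animals across tissues, other than by time of day. A fit with time as a block, for ZT7 and ZT19 of retina and mixed tissue, called 25 members, 7 higher and 18 lower, with 22 shared, Abhd14b, Ctnna1 and Gfpt2 gained and Bop1, Irs1 and MGC95210 lost. Under 17 alternatives to the rule, 31 of 56 members stayed in every time. Median ratio scaling gave 56 members (45 shared) and quantile normalization 60 (45 shared), with 18 lost under one or the other, among them Abhd14b, Cdh22, MGC95210 and Tcn2 under both, Ptprn, Gch1 and A2m under quantile normalization and Cd63 and Sall1 under median ratio scaling. Leaving out 1 library gave 48 (without mixed ZT19) to 60 members (without pineal ZT19).

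Between retina and mixed tissue, a filter of 5 FPKM gave 15 calls with 9 lower, quantile normalization 43 with 30 higher, and median ratio scaling 18 higher. Some of those 9 passed the filter of 5 FPKM only through the mixed libraries, which fixed their direction. Leaving out 1 library gave 16 to 28 calls, 9 to 20 lower and 6 to 8 higher, and 16 without either mixed library. Retina rhythm gave 0 calls by limma with no filter (12 at an unadjusted p under 0.05) and 1 (without ZT23) to 5 (without ZT7) when a library was left out. Retina late dark gave 0 to 1. With minima of 5 FPKM, 20 of 24 members were steady in the retina and 22 of 23 in mixed tissue; after quantile normalization 40 of 43 and 37 of 38, and after median ratio scaling 38 of 42 and 49 of 50. Not every member was tested in each alternative, with 29 tested at the filter of 5 FPKM and 44 without a mixed library. Where they were tested, only Irs1 of the 25 members called between retina and mixed tissue changed sign in any of the 18 alternatives. It moved to 0.51 after quantile normalization. The cause was not tested. Depth limits values near 0.0534 FPKM, such as retina Esm1 and Rarres1.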
